A study of Homo sapiens with 13 samples.

Results

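The integrin and laminin genes comprise 38 genes of the 56831 listed in the RNA tables of this study. They were chosen by symbol: 18 integrin alpha genes, 8 integrin beta genes, 5 laminin alpha genes, 4 laminin beta genes and 3 laminin gamma genes. RNA was sequenced from the small cell lung cancer (SCLC) lines H82 and H146, both established. In each line, untreated cells (3 libraries) were compared with cells kept in FHD-286, an inhibitor of the chromatin remodeling ATPases SMARCA2 and SMARCA4, at 100 nM for 14 days (3 libraries in H82, 4 in H146). No transgene or deletion separated the groups, and the control cells were unexposed rather than matched to a vehicle, as far as the labels say. The numbered libraries of a group (n1 to n4) are not stated to be separate cultures, so *p* values measure the spread between these libraries.

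Integrins are cell surface receptors made of 1 alpha and 1 beta subunit, which grip proteins outside the cell and connect them to the actin or keratin skeleton within. Laminins are large cross-shaped proteins of the basement membrane, each built from an alpha, a beta and a gamma chain, and they are ligands of several integrins. SCLC cells often grow in suspension, and their contact with laminin and fibronectin has long been studied in connection with drug response and survival.

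Expression is given as transcript abundance in TPM, in which the reads of a gene are divided by its length and each library is scaled to the same total, so that levels of different genes can be set side by side. The fold changes, with their standard errors (SE), are differences of mean log2(TPM + 1), tested two-sided with limma in each line on its own, over genes that reached 1 TPM in 3 or more libraries of that line, and *p* values were adjusted by Benjamini-Hochberg over the whole table tested. A change was called at an adjusted *p* under 0.05. TPM carry no read depth, so no counting interval is given. In bulk RNA, fewer cells expressing a gene and less RNA per cell cannot be told apart.

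The libraries differed in ways that touch low values. Olfactory receptor genes (400 genes), which these cells are not known to use, summed to between 40.7 and 50.7 TPM in untreated H82, to between 9.99 and 13.1 TPM in treated H82 and to between 24.2 and 30.2 TPM in H146. Genes abundant in untreated H146 and at most at 0.1 TPM in untreated H82 (259 genes) summed to 587 TPM in treated H82 n2, against 130 and 58.5 TPM in the other treated H82 libraries and 1.73 to 2.56 TPM in the untreated ones. Among the treated H146 libraries, n3 and n4 deviated from the group mean together (correlation 0.42). For n1 with n2 this correlation was 0.09, against -0.73 to -0.50 for n1 or n2 with n3 or n4. In log2 levels n1 was about as close to n3 (correlation 0.9735) as to n2 (0.9744). Neuroendocrine markers were present in all groups, with 9 to 11 of 11 at a mean of 1 TPM or more, but their levels moved. In H146 they summed to between 5009 and 5568 TPM without and 3110 and 3899 TPM with treatment. In H82 the sums were 1495 to 1597 and 1353 to 1828 TPM, with single markers moving both ways. There *SYP* went from 193 to 212 TPM to 31.5 to 58.1 TPM, and *UCHL1* from 384 to 430 TPM to 808 to 1053 TPM. Epithelial markers, of which 6 of 8 reached that level in H146 and none was at 0 throughout, summed to between 2250 and 2415 TPM in untreated H146 and to between 581 and 650 TPM in treated H146. In H82, where 1 of them was at 0 in all treated libraries, they summed to between 3.16 and 5.34 TPM without treatment and to between 9.93 and 115 TPM with it, the highest in n2. With treatment in H82, fibroblast markers (10 genes) went from 3.16 to 3.57 TPM in sum, 3 of them at 0 throughout, to 8.04 to 35.8 TPM. *THY1* of that list went the other way, from 1.07 to 1.68 TPM to 0 to 0.194 TPM. Endothelial markers (7 genes) went in H82 from 0.961 to 1.92 TPM to 11.7 to 21.9 TPM, with *CDH5*, which defines endothelium, at most at 0.0697 TPM. Most of the treated sum was *EGFL7* (9.08 to 21.4 TPM) and, in n2, *CLDN5* (12.3 TPM), while *PECAM1* was lower with treatment. Leukocyte markers (10 genes) went from 19 to 27.4 TPM to 3.24 to 7.48 TPM in H82. Most of that fall was *CSF1R*, from 15.4 to 19 TPM to 0.458 to 2.67 TPM, while *CD14* overlapped between the groups. The mitochondrial share of TPM lay at 22.1% to 24.1% in untreated and 12.3% to 14.9% in treated H82, at 7.56% to 8.86% in untreated H146, and between 3.82% (n4) and 11.4% (n1) in treated H146. Genes at 1 TPM or more numbered 21227 to 21772 in untreated and 15554 to 16633 in treated H82. The part of these differences in the results below was not tested.

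All tested genes together had a median change of -0.56 (log2) in H82 and of 0.25 in H146. A member whose level did not move therefore lies above most H82 genes and below most H146 genes. Scaling the libraries by the median of ratios brought the medians to -0.14 and -0.02. Calls that depend on this scaling are named with their values.

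Promoter sequence was looked up in a RefSeq table (GRCh38.p14), which held 26 of the 38 members. It is shown for the members whose call in H82 held under every alternative that could test it. Of these, *ITGA10* and *ITGB8* passed the filter through the untreated group alone and so had to differ. *ITGA6*, *ITGA10*, *ITGB8*, *LAMA5* and *LAMB1* fell and *LAMC1* rose. Each line reads 5′ to 3′ on the strand of the gene and ends just before the first RefSeq start of the gene, or before the GENCODE gene where that begins further upstream. Capitals mark whole matches, on either strand, to the GC box GGGCGG, the E-boxes CAGATG and CAGCTG, the TEAD site GGAATG or the AP-1 site TGANTCA.

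ITGA6: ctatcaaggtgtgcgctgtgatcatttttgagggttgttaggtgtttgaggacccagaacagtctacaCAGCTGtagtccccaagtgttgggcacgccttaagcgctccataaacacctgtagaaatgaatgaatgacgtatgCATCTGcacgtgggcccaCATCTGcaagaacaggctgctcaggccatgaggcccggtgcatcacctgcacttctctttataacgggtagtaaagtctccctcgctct
ITGA10: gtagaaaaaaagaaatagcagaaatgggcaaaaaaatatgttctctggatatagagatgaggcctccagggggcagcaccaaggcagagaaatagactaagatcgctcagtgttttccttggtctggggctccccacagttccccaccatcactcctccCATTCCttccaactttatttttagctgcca
ITGB8: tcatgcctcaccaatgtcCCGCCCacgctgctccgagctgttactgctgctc
LAMA5: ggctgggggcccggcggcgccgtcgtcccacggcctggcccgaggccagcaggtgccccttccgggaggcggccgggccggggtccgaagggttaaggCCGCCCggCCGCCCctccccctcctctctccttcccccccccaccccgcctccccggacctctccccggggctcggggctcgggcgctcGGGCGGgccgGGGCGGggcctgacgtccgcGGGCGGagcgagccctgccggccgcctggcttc
LAMB1: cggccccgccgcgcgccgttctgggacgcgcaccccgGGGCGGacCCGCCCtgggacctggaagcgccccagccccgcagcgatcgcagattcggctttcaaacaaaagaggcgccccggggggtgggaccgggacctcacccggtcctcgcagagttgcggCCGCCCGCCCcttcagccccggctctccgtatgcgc
LAMC1: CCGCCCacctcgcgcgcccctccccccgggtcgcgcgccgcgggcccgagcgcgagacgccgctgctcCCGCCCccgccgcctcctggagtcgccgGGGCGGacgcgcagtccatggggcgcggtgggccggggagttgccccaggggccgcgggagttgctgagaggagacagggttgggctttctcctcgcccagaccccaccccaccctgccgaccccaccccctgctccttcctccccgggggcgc

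The *ITGA6* stretch is chr2:172427086-172427335 on the plus strand. That of *ITGA10* is chr1:145910112-145910300 on the minus strand. *ITGB8* is shown at chr7:20330650-20330701, plus strand, and *LAMA5* at chr20:62367313-62367562, minus strand. The *LAMB1* stretch is chr7:108003214-108003411, minus strand, and that of *LAMC1* is chr1:183023170-183023419, plus strand. The falling *LAMA5*, *LAMB1* and *ITGB8* promoters held 5, 4 and 2 GC boxes within 250 bases, overlapping ones included. The falling *ITGA6* and *ITGA10* held 0, and the rising *LAMC1* promoter held 3. For *ITGB8*, 1 of the 2 lies in the printed stretch. At least 1 GC box was found in 42.6% of the 35116 stretches of 250 bases in the table, so its presence is common. *ITGA6* held 2 matches to CAGATG (12.2% of stretches have any) and 1 to CAGCTG (14%), and *ITGA10* held 1 TEAD match (11.9%). None of the printed stretches held an AP-1 match, which 6.57% of stretches have. The guanine and cytosine content of the 250 bases ran from 48.4% in *ITGA10* and 50.8% in *ITGA6* to 82.8% in *LAMA5*, against a median of 58% over the table.

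**Figure D1:**
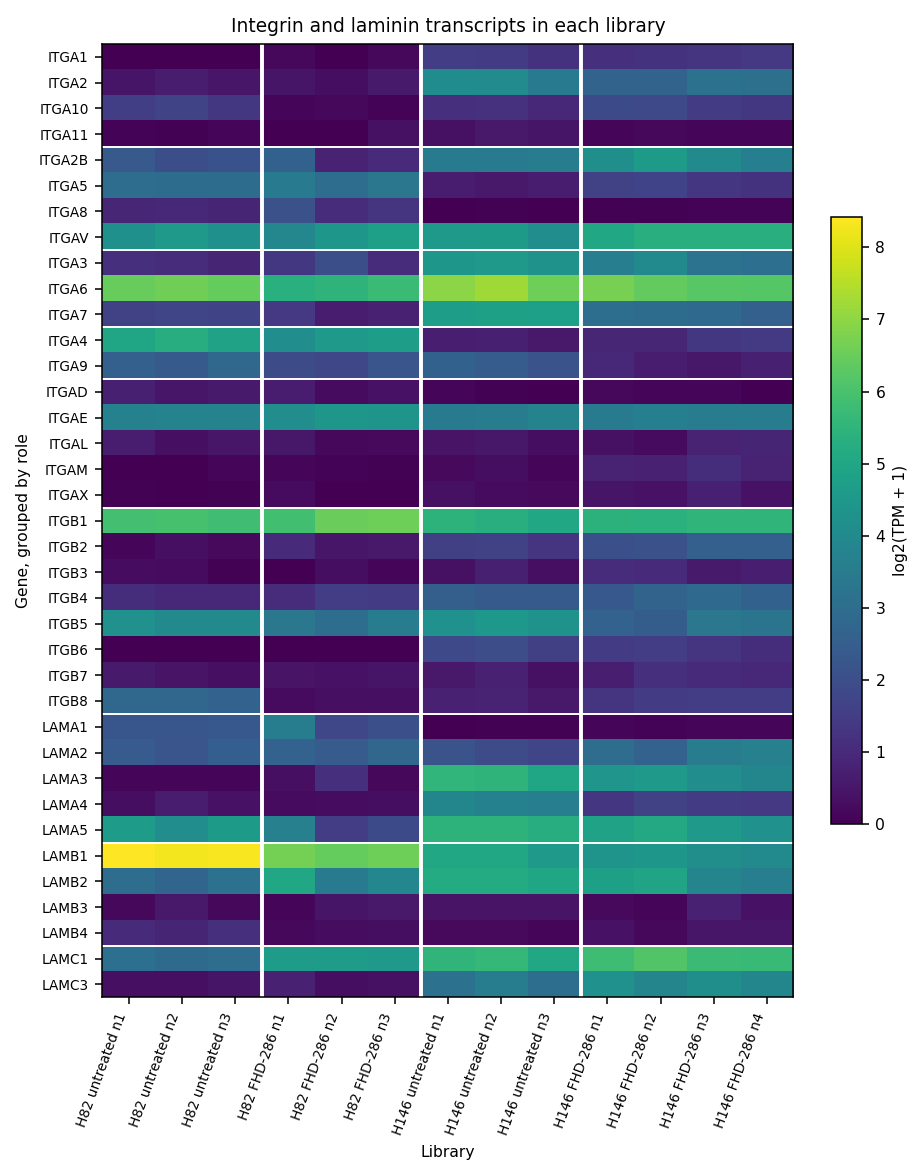
Level of 37 members (rows, grouped by role) in each of the 13 libraries (columns), as log2(TPM + 1) in color. *LAMB1* in untreated H82 is the brightest entry, at 312 to 342 TPM, and *ITGA6* and *ITGB1* are high in every library.

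Of the 38 members, 21 passed the filter in H82 and 26 in H146, 18 of them in both lines, and 9 passed in neither. The plot of levels by library shows that few subunits made up much of the integrin RNA in both lines. *ITGA6*, the alpha subunit of laminin receptors, made up 50.6% to 51.1% of the summed integrin alpha TPM in untreated H82 and 47.6% to 55.5% in untreated H146. *ITGB1*, the common beta partner, made up 69.2% to 73.3% of the integrin beta sum in untreated H82 and 53.5% to 59% in untreated H146. The laminin chains differed more between the lines. In untreated H82, *LAMB1* alone held 97.3% to 97.8% of the laminin beta sum, whereas in untreated H146 *LAMB2* held 52.8% to 57.1% of it.

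In H82, 3 of 21 tested members rose (14.3%, where 13.1% of all tested genes rose) and 9 fell (42.9%, where 45.5% of all tested genes fell). These shares lie near those of all genes. The median over the tested members was 0.04. Under the median of ratios, 7 members rose (24.2% of all genes) and 5 fell (32.9% of all genes). In H146, 8 of 26 tested members rose (30.8%, where 32.5% of all tested genes rose) and 10 fell (38.5%, where 15.5% of all tested genes fell), with a median of -0.29. Under the median of ratios the counts in H146 were 6 higher (21.3% of all genes) and 13 lower (25.1% of all genes). Some members passed the filter through a single group and so had to differ: *ITGA10*, *ITGB8* and *ITGA8* in H82, and *ITGA5*, *ITGA9* and *ITGB8* in H146.

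**Figure D2:**
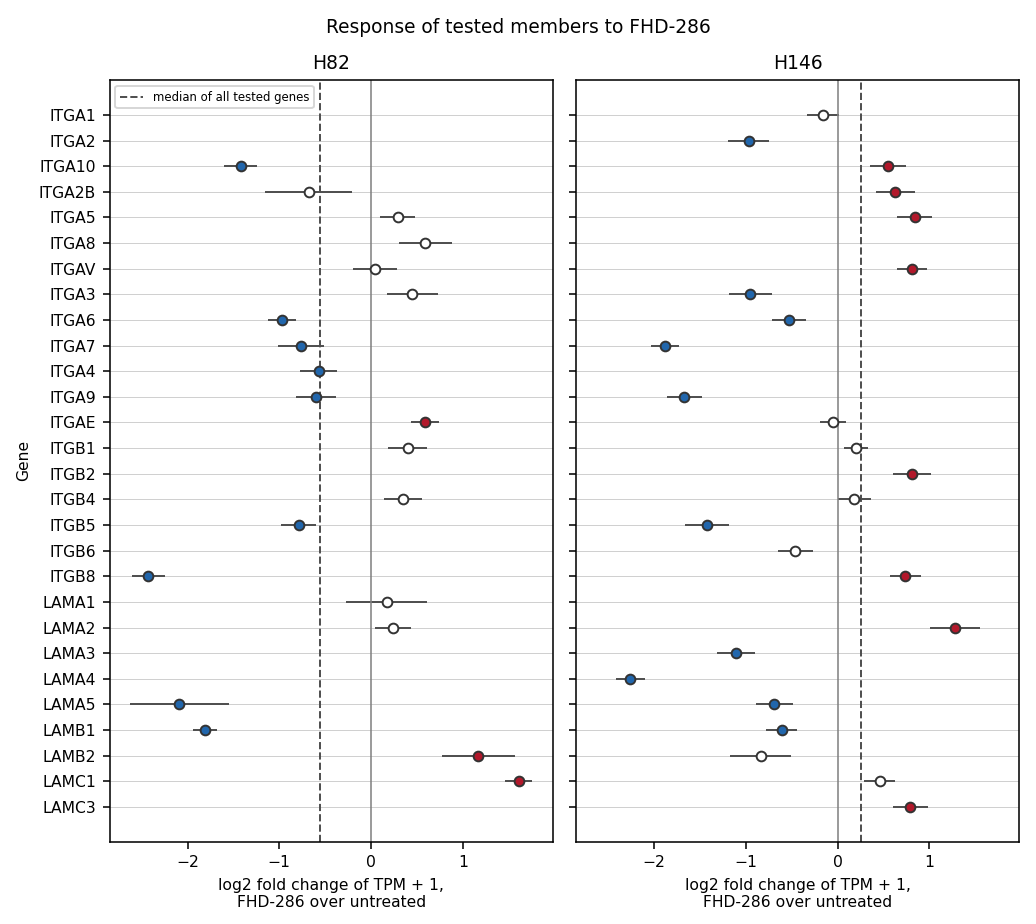
Log2 fold change of TPM + 1 with its standard error (horizontal bars) for tested members in H82 (left) and H146 (right). Red points rose and blue points fell at an adjusted *p* under 0.05 with limma, white points did not pass, and the dashed line is the median of all tested genes (-0.56 and 0.25).

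*LAMB1* (ENSG00000091136.15, chromosome 7, 107923799 to 108003213, minus strand, hg38) encodes the beta chain of the classical laminins. It was at 342, 312 and 324 TPM without and at 99.2, 85.4 and 93.5 TPM with FHD-286 in H82, with no overlap between the groups. The means of 326 ± 15 and 92.7 ± 6.98 TPM (SD, n = 3 and 3) differ 3.52-fold, with a log2 fold change of -1.81 (SE 0.13, adjusted *p* = 0.000151 by limma). *LAMB1* nonetheless remained the most abundant laminin chain of treated H82. In H146 it was at 31.1, 31.2 and 22.7 TPM without and at 19.5, 21.1, 16.7 and 15.4 TPM with treatment. That smaller fall was called as well (log2 fold change -0.61, adjusted *p* = 0.0167 by limma), and it lost the call without untreated n1 or n2 (adjusted *p* up to 0.0741 by limma).

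*LAMB2*, the beta chain found in synaptic and kidney basement membranes, went the other way in H82. It was at 7.1, 5.74 and 7.84 TPM without and at 32.2, 10 and 14 TPM with treatment, so that the groups did not overlap while treated n1 lay far above the other treated libraries. Its log2 fold change was 1.17 (SE 0.40, adjusted *p* = 0.0383 by limma), and without untreated n1, n2 or n3 or treated n3 the call was lost (adjusted *p* up to 0.123 by limma). In H146, *LAMB2* was at 35.5, 35.4 and 31 TPM without treatment, at 26.9 and 29.1 TPM in treated n1 and n2, and at 13.1 and 11.1 TPM in treated n3 and n4. All treated libraries lay below the untreated ones, but the log2 fold change of -0.84 did not pass the threshold (adjusted *p* = 0.0608 by limma). It passed without treated n1 or n2 (-1.02 and -1.05), with n3 and n4 alone (-1.42, adjusted *p* = 7.63e-05 by limma), and under the median of ratios (-1.15, adjusted *p* = 0.0272 by limma).

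*LAMC1* (ENSG00000135862.6, chromosome 1, 183023420 to 183145592, plus strand) encodes the gamma chain shared by most laminins. H82 held 7.46, 6.57 and 7.04 TPM without and 23.8, 24.1 and 22.4 TPM with FHD-286, a 3.33-fold rise with little spread in either group. Its log2 fold change was 1.61 (SE 0.15, adjusted *p* = 0.00026 by limma). In H146 it was already at 44.8, 47.6 and 32 TPM and reached 55.6, 68.6, 52 and 51.3 TPM, a change of 0.46 that did not pass (adjusted *p* = 0.0545 by limma). The gamma chain thus stood below the beta chain *LAMB1* in both groups of H82 and above it in both groups of H146. *LAMC3*, a gamma chain of restricted tissues, rose in H146 from 7.82, 10.9 and 7.24 TPM to 18.2, 13.2, 17.4 and 13.7 TPM, again with no overlap (log2 fold change 0.79, SE 0.19, adjusted *p* = 0.00924 by limma). *LAMC3* did not reach 1 TPM in any H82 library.

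Among the alpha chains, which carry the main integrin binding sites, *LAMA5* fell in both lines. This chain is the widespread one of adult epithelia. H82 libraries held 23.9, 16.5 and 23 TPM without and 11.7, 1.88 and 2.7 TPM with treatment. The groups did not overlap, although treated n1 kept far more than n2 and n3 (log2 fold change -2.09, SE 0.54, adjusted *p* = 0.0134 by limma). In H146 it went from 42.6, 42.4 and 37.2 TPM to 27.7, 33.2, 22.7 and 18 TPM (log2 fold change -0.69, SE 0.20, adjusted *p* = 0.0203 by limma). Without untreated n1 or n2, or with treated n1 and n2 alone, the H146 call was lost (adjusted *p* up to 0.0721 by limma).

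*LAMA4* (ENSG00000112769.20, chromosome 6, 112107931 to 112254939, minus strand), an alpha chain of vessels and nerves, had the largest fall of any tested member in H146. It went from 13.5, 11.9 and 11.1 TPM to 1.51, 2.07, 1.81 and 1.62 TPM, a 6.97-fold difference of the means (log2 fold change -2.26, SE 0.16, adjusted *p* = 2.9e-05 by limma). In H82 it was under the filter in both groups, at 0.249 to 0.56 and 0.196 to 0.242 TPM. *LAMA3*, the alpha chain of the epithelial laminin, was the most abundant laminin alpha chain in untreated H146 n1 and n2. It fell from 45.6, 43.4 and 30.7 TPM to 19.8, 22.4, 16.4 and 13.5 TPM (log2 fold change -1.11, SE 0.21, adjusted *p* = 0.00316 by limma). The epithelial marker sum of H146 fell with it, though *CDH1* of that list did not, at 45.5 to 60.8 and 55.9 to 90.2 TPM. The part of these markers was not tested. In H82, *LAMA3* was at 0.0709 to 0.0908 TPM without treatment and at 0.265, 1.24 and 0.132 TPM with it, the highest value in n2, the library with the most RNA of H146-type genes.

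*LAMA2*, the alpha chain of muscle and nerve, was the only tested laminin alpha chain to rise in H146. It went from 3.42, 2.86 and 2.36 TPM to 7, 5.32, 11 and 11.6 TPM (log2 fold change 1.28, SE 0.27, adjusted *p* = 0.00519 by limma), with the higher values in n3 and n4. In H82 it was at 3.68 to 4.7 TPM and at 4.37 to 5.92 TPM. There the change of 0.24 passed only under the scaling alternatives, median of ratios and quantiles (adjusted *p* = 0.321 by limma, and 0.0292 under the median of ratios). *LAMA1*, an embryonic alpha chain, was at 3.77, 3.82 and 3.99 TPM in untreated H82 and at 10.5, 2.43 and 3.19 TPM in treated H82. Treated n1 alone was high, and the change of 0.17 was not called (adjusted *p* = 0.753 by limma). Under quantile normalization the *LAMA1* change in H82 passed (1.12, adjusted *p* = 0.0447 by limma). In H146 it stayed at or under 0.101 TPM.

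**Figure D3:**
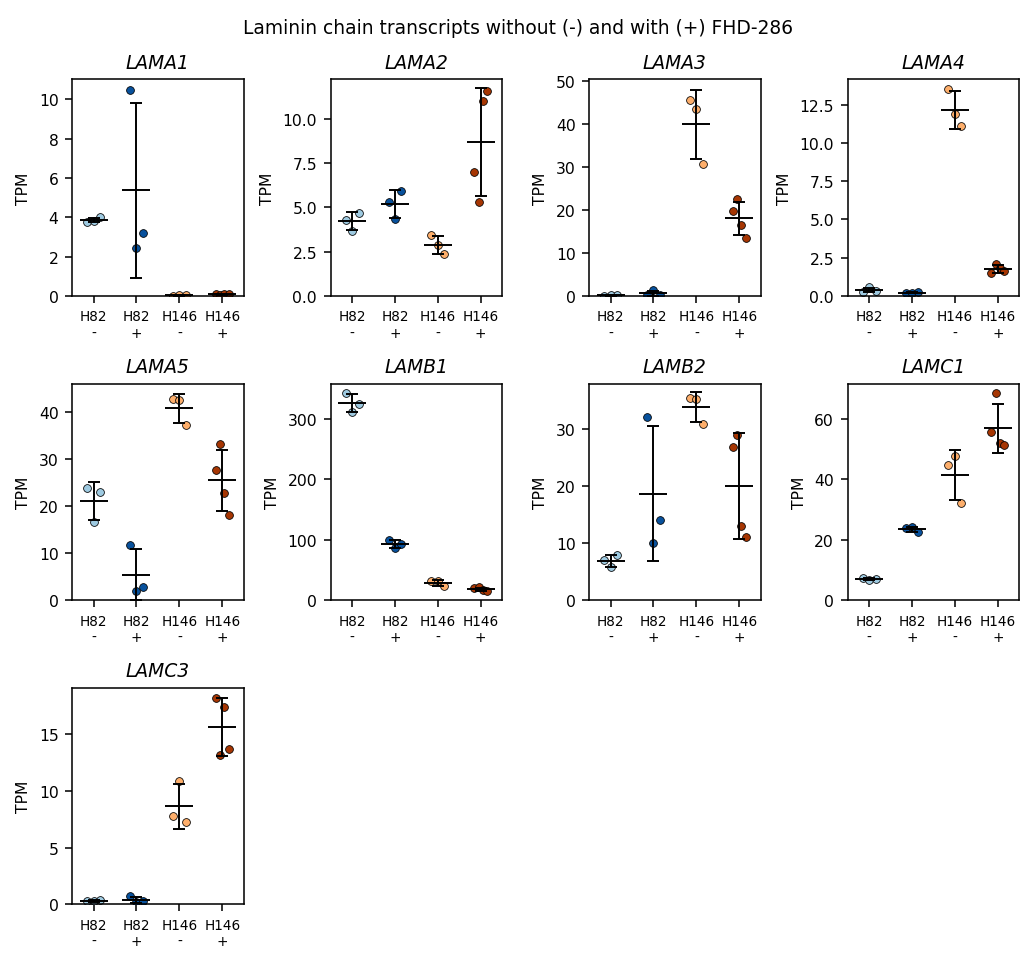
TPM of 9 laminin chains in each library (points), with the mean (bar) and SD (whiskers) of each group, for H82 and H146 without (-) and with (+) FHD-286, each gene on its own axis from 0. *LAMB1* fell from 326 to 92.7 TPM on average in H82 while *LAMC1* rose from 7.02 to 23.4 TPM, and *LAMA3*, *LAMA4* and *LAMA5* fell in H146.

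Laminins are secreted as trimers, so the least abundant chain of a trimer can be read from the levels as a description. For the trimer of *LAMA5*, *LAMB1* and *LAMC1*, the lowest chain in untreated H82 was *LAMC1*, at 7.02 ± 0.445 TPM (SD, n = 3). With treatment the lowest chain was *LAMA5*, at 5.44 ± 5.46 TPM (SD, n = 3). In H146 the lowest chain of this trimer was *LAMB1* in both groups, at 28.3 ± 4.84 and 18.2 ± 2.58 TPM (SD, n = 3 and 4). The protein was not measured.

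The 3 laminin-binding alpha subunits all fell in H146, where 15.5% of all tested genes fell. In H82, 2 of them fell, beside 45.5% of all tested genes, and 1 of them under the median of ratios. *ITGA6* (ENSG00000091409.16, chromosome 2, 172427354 to 172506459, plus strand) was at 86.4, 96 and 85.5 TPM without and at 40.1, 43.3 and 52.7 TPM with FHD-286 in H82. The groups were apart by more than their spread, with a log2 fold change of -0.97 (SE 0.15, adjusted *p* = 0.00163 by limma). Its share of the integrin alpha sum went to between 35.2% and 37.1%. The H146 values were 124, 148 and 92.6 TPM without and 103, 83.4, 73.8 and 72.3 TPM with treatment. These groups overlap, and the change of -0.53 (SE 0.19, adjusted *p* = 0.0447 by limma) lost its call without untreated n1 or n2, without treated n3 or n4, and with treated n1 and n2 alone (adjusted *p* up to 0.195 by limma).

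*ITGA7* (ENSG00000135424.19, chromosome 12, 55684568 to 55716404, minus strand), the laminin receptor subunit of muscle, had the clearest fall among the integrins of H146. It went from 25.2, 26.9 and 26.2 TPM to 7.27, 6.9, 6.38 and 4.98 TPM (log2 fold change -1.88, SE 0.15, adjusted *p* = 6.11e-05 by limma). In H82 it lay at 2.11, 2.36 and 2.31 TPM and at 1.65, 0.566 and 0.72 TPM. That call (-0.76, adjusted *p* = 0.0334 by limma) was lost without any of the untreated libraries or treated n2 or n3 (adjusted *p* up to 0.103 by limma), and under the median of ratios (-0.47, adjusted *p* = 0.181 by limma). *ITGA3*, the other laminin-binding subunit, which pairs with *ITGB1* in epithelia, fell in H146 from 21.2, 22.2 and 18.4 TPM to 11.1, 15.5, 8.17 and 7.49 TPM (log2 fold change -0.95, SE 0.23, adjusted *p* = 0.011 by limma). In H82 it was at 0.835 to 1.21 TPM and at 1.56, 3.07 and 1.08 TPM, and did not pass (0.45, adjusted *p* = 0.208 by limma). Under quantile normalization it did (1.34, adjusted *p* = 0.00725 by limma).

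Of the collagen-binding alpha subunits, *ITGA10*, known from cartilage, moved in opposite directions in the lines. The H82 values were 1.94, 2.3 and 1.59 TPM without and 0.0945, 0.132 and 0.0605 TPM with treatment (log2 fold change -1.42, SE 0.18, adjusted *p* = 0.00082 by limma). Every treated library was more than an order of magnitude below the untreated ones. In H82 *ITGA10* passed the filter through the untreated group alone and so had to differ. The H146 values were 1.21, 1.32 and 0.939 TPM and 2.73, 2.66, 1.8 and 1.58 TPM. This rise (0.55, adjusted *p* = 0.0493 by limma) lost its call under the median of ratios (0.36, adjusted *p* = 0.171 by limma), with a pseudocount of 0.1 (0.84, adjusted *p* = 0.0515 by limma) and when any library but treated n4 was left out. *ITGA2*, the collagen receptor subunit of platelets and epithelia, fell in H146 from 16.2, 15.9 and 10.1 TPM to 5.47, 5.43, 8.1 and 7.62 TPM (log2 fold change -0.97, SE 0.22, adjusted *p* = 0.00739 by limma). It stayed under 1 TPM in H82. *ITGA1* was at 1.18 to 1.89 TPM across H146 and did not pass (-0.16, adjusted *p* = 0.458 by limma).

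The subunits that bind the RGD motif of fibronectin and vitronectin rose in H146, all 3 that were tested, where 32.5% of all tested genes rose. Under the median of ratios 2 of the 3 did. *ITGA5*, in both counts, passed the filter in H146 through the treated group alone and so could only be higher. *ITGA8* was below the filter there. *ITGAV* (ENSG00000138448.13, chromosome 2, 186590010 to 186680901, plus strand) was at 22.7, 23.1 and 16.3 TPM without and at 31.7, 38.4, 38.4 and 38.5 TPM with treatment (log2 fold change 0.81, SE 0.16, adjusted *p* = 0.0036 by limma). Treated n1 lay below the other treated libraries and still above all untreated ones. H82 held 17.7, 22 and 17.8 TPM and 13.9, 21 and 25.9 TPM, with full overlap. *ITGA5*, the main fibronectin receptor subunit, rose in H146 from a low level of 0.599, 0.494 and 0.576 TPM to 2.1, 2.25, 1.5 and 1.37 TPM (log2 fold change 0.84, SE 0.19, adjusted *p* = 0.00675 by limma). In H82, which had more of it, it was at 7.14, 6.85 and 6.84 TPM and at 10.2, 7 and 9.19 TPM (0.29, adjusted *p* = 0.228 by limma, turning to 0.73 and 0.0188 after median of ratios scaling). *ITGA2B*, the fibrinogen receptor subunit of platelets, rose in H146 from 10.2, 9.89 and 10.6 TPM to 17.5, 23.2, 15.3 and 11.5 TPM (0.63, adjusted *p* = 0.0391 by limma). Its call was lost under the median of ratios (0.33, adjusted *p* = 0.271 by limma) and without any of the untreated libraries or without treated n1 or n3 (adjusted *p* up to 0.106 by limma). In H82 *ITGA2B* was at 5.12 TPM in treated n1 and at 0.775 and 1.01 TPM in n2 and n3, against 3.04 to 4.15 TPM without treatment. *ITGA8* lay at 0.816 to 0.896 TPM in untreated H82 and at 3.27, 1.12 and 1.42 TPM in treated H82 (0.59, adjusted *p* = 0.119 by limma). It passed the filter there through the treated group alone, and its change passed under quantile normalization (1.46, adjusted *p* = 0.00285 by limma).

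*ITGA4* and *ITGA9* form a branch of their own and bind fibronectin, VCAM1 and tenascin. *ITGA9* fell in H146 from 5.06, 4.49 and 3.45 TPM to 0.929, 0.592, 0.467 and 0.689 TPM, a 6.47-fold difference of the means (log2 fold change -1.67, SE 0.19, adjusted *p* = 0.000293 by limma). *ITGA9* passed the filter in H146 through the untreated group alone and so had to differ. The H82 values of *ITGA9* were 5.03, 4.17 and 5.96 TPM without and 2.9, 2.45 and 3.62 TPM with treatment. The change there (-0.60, adjusted *p* = 0.0468 by limma) lay close to the median of all genes and was lost when any library was left out and under the median of ratios (-0.21, adjusted *p* = 0.437 by limma). *ITGA4* was abundant only in H82, at 30.4, 37 and 28.1 TPM without and at 16.6, 22 and 25.1 TPM with treatment. Its change of -0.57 (adjusted *p* = 0.0406 by limma) equals the shift of all genes within its standard error of 0.20, and was -0.10 under the median of ratios (adjusted *p* = 0.652 by limma). It also lost the call without any of the untreated libraries or treated n2 (adjusted *p* up to 0.131 by limma). Of the *ITGA4* exon length, 26.4% is shared with *CERKL* on the opposite strand. Whether counting used strand is not given in the sources used here, so reads of the *ITGA4* and *CERKL* overlap may be mixed.

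Of the leukocyte alpha subunits, *ITGAE*, which marks T cells resident in epithelia, was the only one to reach 1 TPM in 3 libraries of a line. It rose in H82 from 11.9, 12.6 and 12.5 TPM to 16.6, 21.2 and 19.5 TPM (log2 fold change 0.59, SE 0.15, adjusted *p* = 0.0148 by limma). Without treated n2 this was 0.51 (adjusted *p* = 0.0527 by limma), and it also lost the call without untreated n1 or n3. In H146 it lay at 9.87 to 12.7 TPM in all libraries. Its usual partner *ITGB7* stayed at or under 1.24 TPM, and 42.3% of the *ITGB7* exon length is shared with *ZNF740* on the opposite strand.

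**Figure D4:**
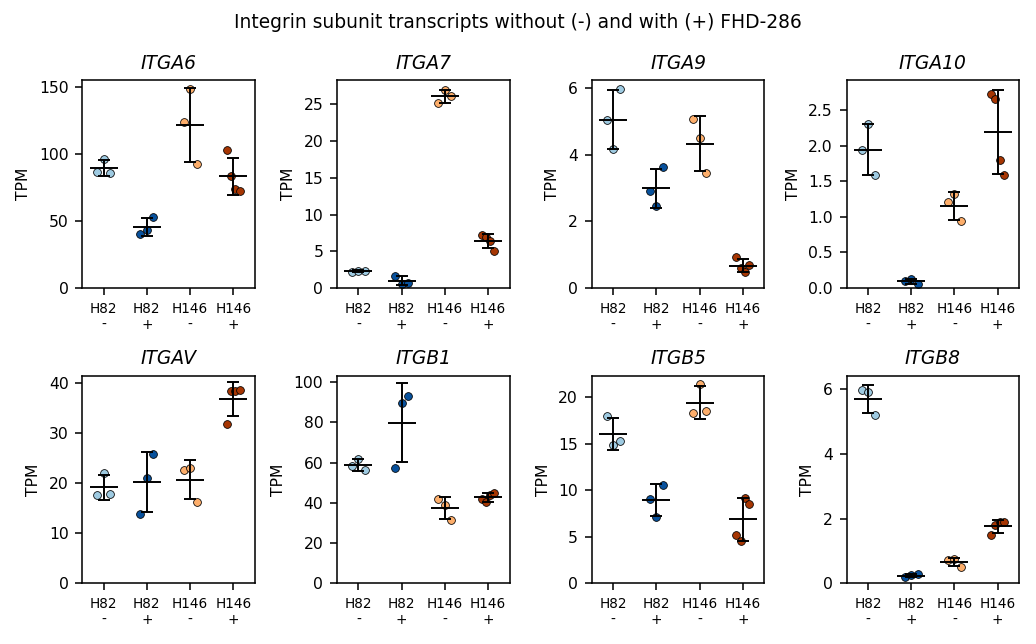
TPM of 8 integrin subunits in each library (points), with the mean (bar) and SD (whiskers) of each group, for H82 and H146 without (-) and with (+) FHD-286, each gene on its own axis from 0. *ITGB8* fell from 5.69 to 0.242 TPM on average in H82 and rose from 0.654 to 1.76 TPM in H146, and *ITGB5* fell in both lines.

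Of the 6 beta subunits tested for a difference in response between the lines, 1 passed, *ITGB8* (16.7%, where 59.3% of all tested genes passed). Under the median of ratios 5 passed. The change in H146 was above that in H82 for 1 and below it for 4 (30.8% and 25.5% of all genes). *ITGB8* (ENSG00000105855.10, chromosome 7, 20330702 to 20415754, plus strand) pairs with *ITGAV* into a receptor that frees active TGF beta from its latent complex. In H82 it was at 5.97, 5.9 and 5.2 TPM without and at 0.181, 0.266 and 0.278 TPM with FHD-286, a 23.6-fold difference of the means (log2 fold change -2.43, SE 0.18, adjusted *p* = 0.000152 by limma). H146 held 0.72, 0.741 and 0.501 TPM without and 1.48, 1.79, 1.88 and 1.88 TPM with treatment (0.74, SE 0.17, adjusted *p* = 0.00731 by limma). The groups did not overlap in either line. *ITGB8* passed the filter through the untreated group alone in H82 and through the treated group alone in H146. The lack of overlap and the opposite directions were therefore fixed by the filter. The olfactory receptor sum moved the same way as *ITGB8* in H82, and its part was not tested.

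*ITGB5*, a vitronectin receptor subunit that also pairs with *ITGAV*, was lower in both lines. It went from 18, 14.9 and 15.3 TPM to 9.08, 7.15 and 10.6 TPM in H82 (log2 fold change -0.79, SE 0.19, adjusted *p* = 0.0104 by limma). This call was lost without untreated n1 (adjusted *p* = 0.0522 by limma) and under the median of ratios (-0.33, adjusted *p* = 0.169 by limma). In H146 it went from 18.3, 21.5 and 18.5 TPM to 5.2, 4.61, 9.22 and 8.49 TPM (-1.42, SE 0.24, adjusted *p* = 0.0018 by limma). *ITGB1* (ENSG00000150093.20, chromosome 10, 32887273 to 33005792, minus strand) was at 58.3, 61.9 and 56.3 TPM without and at 57.1, 89.9 and 92.9 TPM with treatment in H82, where n1 did not share the higher level of n2 and n3 (0.40, adjusted *p* = 0.133 by limma). Leaving out treated n1 (0.63, adjusted *p* = 0.000859 by limma) or scaling by the median of ratios brought it past the threshold (0.89, adjusted *p* = 0.0053 by limma). In H146 it was at 31.3 to 42.1 TPM and at 40.3 to 44.9 TPM (0.20, adjusted *p* = 0.245 by limma). *ITGB4*, the keratin-linked partner of *ITGA6*, lay at 3.96 to 6.39 TPM across H146 and did not pass in either line. Its H82 change of 0.35 passed only under the scaling alternatives (0.62, adjusted *p* = 0.0337 by limma under the median of ratios).

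*ITGB2*, the beta subunit of leukocyte integrins, rose in H146 from 1.99, 2.15 and 1.45 TPM to 3.18, 3.23, 4.96 and 4.95 TPM (log2 fold change 0.81, SE 0.21, adjusted *p* = 0.0125 by limma), and lost the call without untreated n3 (adjusted *p* = 0.0541 by limma) or with treated n1 and n2 alone (0.56, adjusted *p* = 0.0605 by limma). Leukocyte markers, of which 5 of 10 had a mean of 1 TPM or more in untreated H146 and 6 of 10 in treated H146, summed to between 17.5 and 22.9 TPM without and 26.6 and 53.1 TPM with treatment, with none at 0 in all libraries of either group. Their part in the rise of *ITGB2* was not tested. *ITGB6*, an epithelial partner of *ITGAV*, was listed at 0 in every H82 library and lay at 2.05 to 3.01 TPM without and 1.17 to 1.91 TPM with treatment in H146 (-0.46, adjusted *p* = 0.0745 by limma, turning to -0.67 and 0.018 after median of ratios scaling).

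As *ITGAV* has several beta partners, the lower of the paired chains is given as a description of each dimer. For *ITGAV* with *ITGB1* it was *ITGAV* in every group, at 19.2 ± 2.4 and 20.3 ± 6.04 TPM in H82 (SD, n = 3 and 3) and 20.7 ± 3.81 and 36.8 ± 3.38 TPM in H146 (SD, n = 3 and 4). For *ITGAV* with *ITGB5* H82 had 16 ± 1.55 TPM before and 8.94 ± 1.73 TPM after FHD-286 (SD, n = 3 and 3), and H146 had 18.7 ± 2.62 and 6.88 ± 2.31 TPM (SD, n = 3 and 4). For *ITGA6* with *ITGB1*, the lower chain in H82 was *ITGB1* without treatment, at 58.8 ± 2.86 TPM, and *ITGA6* with treatment, at 45.4 ± 6.52 TPM (SD, n = 3 and 3). In H146 it was *ITGB1* in both groups, at 37.5 ± 5.56 and 42.8 ± 2.11 TPM (SD, n = 3 and 4). Surface protein was not measured.

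Below the filter in H82 were 17 members, of which *ITGB6* was listed at 0 throughout and the other 16 reached at most 1.24 TPM in any library. The groups did not overlap for 3 that were higher with treatment (*ITGA1*, *ITGB2* and *LAMA3*) and 2 that were lower (*LAMA4* and *LAMB4*). Among all genes of that kind, 6.11% were higher and 17.5% were lower without overlap. *LAMB4* lay at 0.984, 0.813 and 1.2 TPM without and at 0.136, 0.218 and 0.236 TPM with treatment, and the olfactory receptor sum moved the same way. In H146, 12 members were below the filter, at most at 1.71 TPM. The groups did not overlap for 5 that were higher (*ITGA4*, *ITGA8*, *ITGAM*, *ITGAX* and *LAMA1*) and for *ITGA11*, which was lower, while over all such genes the shares were 11.3% and 3.65%. *ITGAM*, a myeloid integrin subunit, went from 0.17, 0.254 and 0.0925 TPM to 0.795, 0.714, 1.14 and 0.777 TPM. The remaining low members, *ITGAD*, *ITGAL*, *ITGB3*, *ITGB7* and *LAMB3*, overlapped between the groups in both lines.

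Whether a member answered differently in H82 and H146 was tested with a term for line by treatment over all 13 libraries. It passed for 17 of the 29 members tested, or 58.6%, where 59.3% of all tested genes passed, so differing responses were as common as in the table at large. The difference is given as the H146 change minus the H82 change. It was largest for *ITGB8* (3.17, SE 0.20, adjusted *p* = 3.81e-07 by limma), followed by *LAMA4* (-2.08, adjusted *p* = 1.04e-05 by limma), *LAMB2* (-2.01, adjusted *p* = 0.00764 by limma) and *ITGA10* (1.97, adjusted *p* = 4.31e-05 by limma). Of these, *ITGB8* reached 1 TPM only in untreated H82 and treated H146 libraries, so the sign of its difference was fixed. All 4 also passed under the median of ratios. Of the 8 positive differences, 6 lost the call under that scaling: *ITGA2B* (1.31 to 0.67), *ITGA4* (1.05 to 0.43), *ITGAV* (0.77 to -0.01), *LAMA2* (1.03 to 0.35), *LAMB1* (1.20 to 0.40) and *LAMC3* (0.69 to 0.24). After it, 2 of the 18 differences that passed were positive and 16 negative, against 8 and 9 without it.

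Of the 18 members tested in both lines, 6 fell in both: *ITGA6*, *ITGA7*, *ITGA9*, *ITGB5*, *LAMA5* and *LAMB1*. That is 33.3%, where 4.43% of all genes tested in both lines fell in both. *ITGA9* passed the filter in H146 through the untreated group alone, so its fall there was fixed. Under the median of ratios *ITGA6*, *LAMA5* and *LAMB1* remained, or 16.7%, where 4.58% of all genes did. Opposite calls were made for *ITGA10* and *ITGB8*, or 11.1%, where 15.5% of all genes had them. Under that scaling opposite calls were made for *ITGB8* and *LAMB2* (12.8% of all genes). In H82 *ITGA10* and *ITGB8* passed the filter through the untreated group alone, and in H146 *ITGB8* through the treated group alone. The direction of these calls was thereby fixed. None of the 18 rose in both lines with limma, where 4.83% of all genes did. At an unadjusted *p* under 0.05 by limma *LAMC1* rose in both. The share of all genes at that looser threshold was not taken, so this cannot be set beside the table at large. Under the median of ratios *ITGA5* and *LAMA2* rose in both (5.82% of all genes). Neither *ITGB1* nor *ITGB4* was called in either line.

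The surroundings of these receptors were read from 4 further lists. The first held 30 linkers between integrins and actin, such as talins, kindlins and tensins. In H82, 2 of 21 tested linkers rose and 4 fell, or 9.52% and 19%, beside 13.1% and 45.5% of all tested genes. Their median log2 fold change was -0.19, and under the median of ratios 7 rose and 2 fell (median 0.29). *ZYX* (zyxin, a sensor of tension at adhesions) rose from 12.2 ± 1.29 to 30.9 ± 8.58 TPM (log2 fold change 1.24, adjusted *p* = 0.00254 by limma). *FERMT3*, the kindlin of blood cells, fell from 15.3 ± 2.48 to 0.766 ± 0.571 TPM (-3.25, adjusted *p* = 0.00024 by limma). In H146, 8 of 24 rose and 7 fell, or 33.3% and 29.2%, beside 32.5% and 15.5% of all tested genes (median 0.09). The median of ratios gave 5 and 8 there. *TNS3*, a tensin, fell there from 23.8 ± 3.67 to 2.45 ± 0.582 TPM (-2.85, adjusted *p* = 2.51e-05 by limma), while the related *TNS2* rose from 0.922 ± 0.222 to 3.3 ± 0.808 TPM (1.15, adjusted *p* = 0.00228 by limma).

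The second list held 19 basement membrane partners of laminin. In H82, 1 of 9 tested rose and 5 fell, or 11.1% and 55.6% (median -0.97), near the shares of all genes there. Quantile normalization gave 2 and 1, beside 25.6% and 28.1% of all tested genes. In H146, 3 of 14 rose and 4 fell, or 21.4% and 28.6% (median 0.07), beside 32.5% and 15.5% of all tested genes. *NID1*, nidogen, which joins the laminin gamma chain to collagen IV, was the member that rose in H82 and had the largest fall in H146. In treated H82 it was at 2.81, 32.8 and 31.9 TPM against 0.134 ± 0.12 TPM without treatment, so n1 stayed far below n2 and n3 (log2 fold change 3.84, SE 0.81, adjusted *p* = 0.00589 by limma). In H146 it went from 6.44 ± 0.451 to 1.59 ± 0.778 TPM (-1.57, adjusted *p* = 0.00136 by limma). *FREM1*, of the basement membranes of skin, fell in H82 from 2.52 ± 0.258 to 0.0401 ± 0.00997 TPM (-1.76, adjusted *p* = 0.00033 by limma). *NTN1*, netrin, which is related to laminin, rose in H146 from 0.436 ± 0.169 to 4.03 ± 0.939 TPM (1.80, adjusted *p* = 0.000285 by limma). In H82, *FREM1* passed the filter through the untreated group alone and *NID1* through the treated group alone. *NTN1* passed it in H146 through the treated group alone. These changes therefore had to differ in the direction seen.

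The third list held 17 other laminin receptors and membrane partners of integrins. In H82, 3 of 16 rose and 3 fell, or 18.8% each (median 0.25), beside 13.1% and 45.5% of all tested genes, and under the median of ratios 9 rose and 3 fell. In H146, 6 of 17 rose and 7 fell, or 35.3% and 41.2% (median 0.12), beside 32.5% and 15.5% of all tested genes, and under the median of ratios 4 rose and 8 fell. *SDC2*, a syndecan, rose in H82 from 21.8 ± 1.81 to 102 ± 23.6 TPM (2.15, adjusted *p* = 0.000262 by limma). *DST*, which ties integrins to keratin, fell there from 34.1 ± 2.61 to 9.27 ± 3.11 TPM (-1.82, adjusted *p* = 0.00104 by limma). *DAG1*, dystroglycan, the main laminin receptor that is no integrin, rose in H146 from 14.7 ± 2.35 to 56.6 ± 11.4 TPM (1.86, adjusted *p* = 0.000154 by limma). *CD82*, a tetraspanin that restrains integrins, fell in H146 from 42.4 ± 4.81 to 2.45 ± 0.589 TPM (-3.66, adjusted *p* = 5.43e-06 by limma).

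The fourth list held 28 other integrin ligands. In H82, 2 of 13 rose and 5 fell, or 15.4% and 38.5% (median -0.17), beside 13.1% and 45.5% of all tested genes. Quantile normalization gave 4 and 3, beside 25.6% and 28.1% of all tested genes. In H146, 4 of 19 rose and 2 fell, or 21.1% and 10.5% (median 0.23), beside 32.5% and 15.5% of all tested genes. The median of ratios gave 4 and 4 there, and quantile normalization 3 and 5 (23.7% and 20.9% of all genes). *TGFB1*, whose latent form is a ligand of *ITGAV* integrins, rose in H82 to 99.4, 168 and 195 TPM from 20.7 ± 3.59 TPM (2.79, adjusted *p* = 0.000314 by limma). *EDIL3*, an RGD protein, fell there from 28.7 ± 2.38 to 2.18 ± 1.6 TPM (-3.36, adjusted *p* = 0.000524 by limma). *LTBP1*, which stores latent TGF beta in the matrix, rose in H146 from 5.37 ± 1.17 to 65.7 ± 11.4 TPM (3.39, adjusted *p* = 8.99e-06 by limma), and *VWF* fell from 1.96 ± 0.329 to 0.0849 ± 0.0492 TPM (-1.44, adjusted *p* = 0.000353 by limma). *VWF* passed the filter in H146 through the untreated group alone and so had to differ. Means of these lists are over 3 libraries a group, or 4 in treated H146, and each named gene was the largest called rise or fall of its list in that line.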

How the data were processed

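RNA-seq values of 13 libraries of H82 and H146 were analysed. The submitters' processing notes for these libraries name Trim Galore 0.4.4, STAR and DESeq2. Per their methods, the authors mapped reads to hg38 and counted them with STAR and GENCODE release 28, and compared groups with DESeq2. The deposited values are TPM, 1 table per line with 56831 genes, and each column sums to 1000000. How gene length was taken is not given in the sources used here. Log2(TPM + 1) was fitted with limma 3.58.1 (lmFit, eBayes with trend) in R 4.3.3, and tables and plots were made with Python 3.11.15, pandas 2.3.3 and matplotlib 3.10.9. The count model of the study was not run, since TPM are not counts. Spreadsheet dates had replaced 29 symbols, none of a member. Coordinates are from GENCODE release 44 and promoters from RefSeq. The fits were tested on simulated data. Alternatives were a pseudocount of 0.1, no filter, a mean TPM above 2, scaling by median of ratios or quantiles, eBayes without trend, a replicate block and each library left out. Fits with treated H146 n1 and n2 or n3 and n4 alone were added after the data had been seen. Members, lists and tests were chosen with earlier results of these data known. Values in every library are given for members called in either line and the most abundant of each role, and for the lists the largest called rise and fall. No column was left out. Counts cover all members, of which 1 is not reported here by name or plotted.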

Additional observations from a re-analysis of the deposited data

Results flagged for a closer look

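The response to FHD-286 differed between the lines by the test of the difference itself (limma interaction of line and treatment, adjusted *p* under 0.05) for 17 members. The values are H146 minus H82 on the log2(TPM + 1) scale, from 3 against 3 libraries in H82 and 4 against 3 in H146. Among the laminin chains the difference was 1.03 for *LAMA2*, -1.56 for *LAMA3*, -2.08 for *LAMA4*, 1.20 for *LAMB1*, -2.01 for *LAMB2*, -1.15 for *LAMC1* and 0.69 for *LAMC3*. Among the integrin alpha subunits it was -0.88 for *ITGA2*, 1.31 for *ITGA2B*, -1.40 for *ITGA3*, 1.05 for *ITGA4*, -1.13 for *ITGA7* and -1.07 for *ITGA9*. It was 1.97 for *ITGA10*, -0.63 for *ITGAE* and 0.77 for *ITGAV*. The single beta subunit was *ITGB8*, at 3.17. The median of this difference over all tested genes was 0.75. Of 21 settings, the call held in 6 for *ITGA2B*, 7 for *LAMC3*, 11 for *ITGAV*, 16 for *ITGA2*, 17 for *LAMA2*, 19 for *ITGA4*, 20 for *ITGA7* and 20 for *LAMB1*. It held in all that could test it for the other 9. Under quantile normalization *ITGA2B* went to 0.04 (adjusted *p* = 0.954 by limma), and under the median of ratios *ITGA4* went to 0.43 (adjusted *p* = 0.159 by limma).

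*ITGAV* in treated H146 n1, at 31.7 TPM, lay apart from the other treated H146 libraries, at 38.4, 38.4 and 38.5 TPM, by Dixon's criterion on the log2(TPM + 1) scale. It was the only flag among the 26 members tested in that group of 4, and chance flags about 1 in 20 groups.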

How the results depend on the processing

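In H82, 3 members rose and 9 fell, against 7 and 5 under the median of ratios and 10 and 5 under quantile normalization. Of all tested genes, 25.6% rose and 28.1% fell under quantile normalization in H82. The median of the tested members went there from 0.04 to 0.51 under the median of ratios. In H146, 8 members rose, against 5 under quantile normalization, 5 with a mean TPM above 2, which tests fewer members, and 5 with the replicate block. Quantile normalization called 23.7% of all tested genes higher in H146. The H146 median of -0.29 became 0.07 with no filter, -0.50 with a mean TPM above 2, and -0.51 under either scaling. Leaving out each library in turn gave 1 to 4 higher and 5 to 9 lower members in H82, with medians of -0.36 to 0.14. The count of higher members was 1 without untreated n1 or n3, the count of lower members was 5 without untreated n1, and the median was -0.36 without treated n1. In H146 the range was 5 to 8 higher (5 without untreated n3) and 7 to 13 lower members. The difference between the lines was called for 14 to 19 members with a library left out, 18 under the median of ratios and 20 under quantile normalization. Under quantile normalization *ITGA7* and *ITGA9* in H82 turned to 0.23 and 0.35, and the differences between lines for *LAMA2* and *LAMC3* to -0.26 and -0.17, none of them called. Under the median of ratios that for *ITGAV* turned to -0.01. The cause of these changes was not tested. Libraries of the same replicate number did not deviate together (correlations of -0.09 to 0.02). With so few libraries a group this cannot settle whether the numbers pair them, and the labels do not say. With the replicate block, 3 members rose and 6 fell in H82, 5 rose and 8 fell in H146, and 14 differed between the lines. The replicate block took the call from *ITGA4*, *ITGA7* and *ITGA9* in H82 and from *ITGA6*, *ITGA10*, *ITGB2*, *LAMB1* and *ITGB8* (0.72, adjusted *p* = 0.0565 by limma) in H146. Calls held under every setting that could test them for 6 of 12 members in H82 and 11 of 18 in H146. TPM give no depth, so values under about 1 TPM, where the olfactory receptor sum moved with treatment in H82, are the least certain.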
